A study of Mus musculus with 6 samples.

Results

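The replication-dependent histone genes were taken as every protein_coding gene of the deposited count table whose symbol begins with Hist, a cluster number from 1 to 4, h, and a histone class from 1 to 4. The rule used names and biotypes only, and it found 53 genes among the 31613 of the table. They comprised 6 linker histone H1 genes, 10 H2A genes, 15 H2B genes, 10 H3 genes and 12 H4 genes. By position, 45 of them lay on chromosome 13 (from 21715763 to 23764406), 5 on chromosome 3 (from 96219865 to 96263311), 2 on chromosome 11 (from 58948920 to 58956830) and 1 on chromosome 6 (Hist4h4, from 136801553 to 136804415). The deposited positions fitted the GRCm38 build, since 47.4% of the genes matched by symbol shared a start or an end with its RefSeq annotation, against 1.3% with GRCm39.

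Bulk RNA-seq was collected from mDPCs (mouse dental papilla cells), which are mesenchymal cells inside the tooth germ, at postnatal day 6. There were 3 libraries of control mice and 3 of Dmp1-Cre;Setd2 fl/fl mice (conditional knockout, cKO), and RNA of 3 biological replicates was pooled into each. The study's list of mice gives fewer animals per genotype than 3 separate pools of 3 would need, so libraries of a group may share animals, and the tests cover only the spread from pool to pool. The labels give the controls as Wild type and the methods as Setd2 fl/fl littermates, so by the methods both groups carried the floxed alleles and only the Cre differed. Cre was driven by Dmp1, a gene of odontoblasts and osteocytes, so that cells of the papilla that do not express it would keep Setd2. Setd2, which encodes the enzyme that trimethylates histone H3 at lysine K36, was at 98.0, 96.5 and 92.0 CPM (counts per 1000000 of the TMM-scaled library) in control replicates 1, 2 and 3. It was at 102, 98.5 and 96.0 CPM in the cKO libraries (log2 fold change 0.05, standard error 0.09, adjusted p = 0.900 by edgeR). That count covers all cells and the whole gene, and is no check of the deletion.

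Histone genes of these clusters are transcribed mainly in S phase, when newly copied DNA must be packed into nucleosomes. An H3 and H4 tetramer and pairs of H2A and H2B form the nucleosome core, and H1 binds the linker DNA between cores. Their mRNAs are unusual in that most carry no poly(A) tail. They end instead a few bases after a short stem-loop, which binds the protein SLBP and which governs their export, translation and decay at the end of S phase. Some of these genes also give longer, spliced or polyadenylated transcripts, above all in cells that have left the cell cycle. Replacement variants such as H3.3 and H2A.Z, in contrast, come from ordinary polyadenylated genes outside the clusters and are made throughout the cell cycle.

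The stem-loop was searched for in the annotated transcripts as an arm GGNNCT, a loop of 4 bases and an arm AGNNCC with all 6 stem positions paired, on the transcript strand and within 100 bases after the coding end. It was present in 40 of the 53 genes, in Hist1h2bc in a nonsense-mediated decay transcript alone. When protein-coding transcripts only were searched over their whole length, 219 of 21642 protein-coding genes (1.01%) held it, and 39 of those were among the 53. The 5 stem-loops shown here belong to the gene with the highest level per kilobase of exon in each family, and capitals mark the arms of the stem. They come from GENCODE vM39 transcripts and were matched by gene identifier.
Hist1h1c (H1): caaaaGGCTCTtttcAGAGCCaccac
Hist3h2a (H2A): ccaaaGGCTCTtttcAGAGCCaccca
Hist3h2ba (H2B): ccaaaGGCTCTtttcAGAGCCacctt
Hist2h3c2 (H3): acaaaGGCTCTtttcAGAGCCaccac
Hist1h4i (H4): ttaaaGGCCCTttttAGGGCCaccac

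Families differed in the stem. The arms GGCTCT and AGAGCC were found in all 29 H1, H2A, H2B and H3 genes with a stem-loop, whereas 10 of the 11 H4 genes with a stem-loop had GGCCCT and AGGGCC. The other, Hist1h4j, had GGTCCT and AGGACC. Loops of 4 bases varied within families, with TTTC in 29 of the 40 genes. The 13 genes without a match included Hist2h2be, whose transcript runs to a polyadenylation signal, and genes such as Hist1h1a, whose annotated transcript stops close to the coding end.

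Downstream of the stem-loop the genes differed much more. In 16 genes every annotated transcript with the stem-loop ended within 100 bases of it, and in 24 at least 1 ran further. A polyadenylation signal (AATAAA in the last 40 bases of an annotated transcript) was found in 16 of the 53 genes. These GENCODE vM39 transcripts can run past the gene models behind the counts. Hist1h2bb, for example, has 1362 exon bases there against a deposited span of 508. The transcript ends shown here are those of the 4 genes with the highest level per length, with the signal in capitals. In Hist1h1c the end lies 840 bases past the stem-loop, and in Hist3h2ba 169 or 171 bases past it.
Hist1h1c: atgcttctAATAAAaagcgtttagttttca
Hist3h2ba: atggtattAATAAAtttggttcaattttgg
Hist1h2bc: gtatatatAATAAAtgtcatgtaaagcaaa
Hist2h2be: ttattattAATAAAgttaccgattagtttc

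The promoters also shared short motifs. In 300-base RefSeq promoter windows (GRCm38.p6, either strand), available for 48 of the genes, TATAAA was found in 64.6% of them and in 14.2% of all 27025 windows. The CCAAT box was found in 83.3% against 37.9%. Every H1, H2A, H2B and H3 window had it, but only 27.3% of the 11 H4 windows did. The octamer ATTTGCAT, known from H2B promoters, was found in 60.0% of H2A and 30.8% of H2B windows, against 1.8% of all windows, and in none of the H1, H3 or H4 windows.

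Histone gene counts were low and were held by few genes. Of 18557647 to 19210750 counts per library, between 1376 and 2104 fell in the 53 genes, which together held 9974 counts over the 6 libraries. Hist1h1c alone held 41.4% of them, and Hist1h1c, Hist1h2bc and Hist2h2be together held 77.2%. After the filter on low counts (filterByExpr, minimum count 10) 8 genes remained and 45 did not. Those 8 genes, of which 1 was H1, 1 H2A, 4 H2B, 1 H3 and 1 H4, held 95.9% of the counts. Just inside the filter were Hist2h3c2 (58 counts in all) and Hist1h2be (61), and just outside were Hist2h4 (57) and Hist1h2bg (55).

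**Figure D1:**
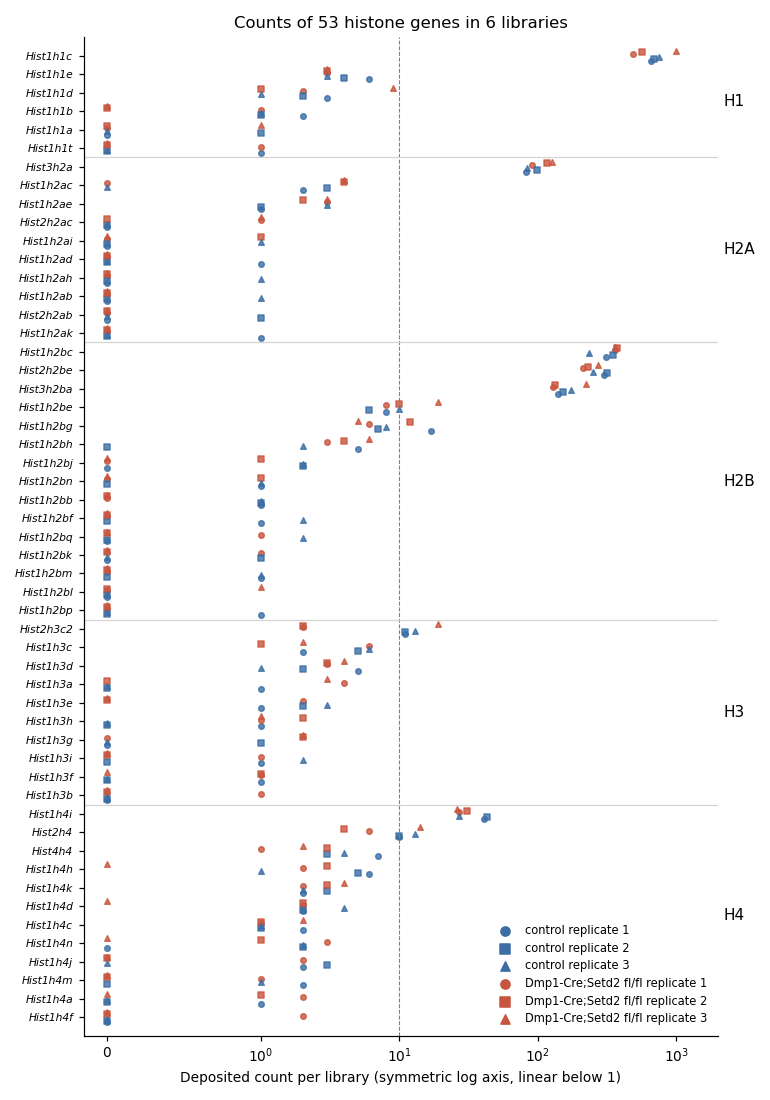
Deposited counts of the 53 histone genes, grouped by protein family (y axis), in each of the 6 libraries (x axis, symmetric log scale that is linear below 1). Blue symbols are control and red symbols cKO libraries (written Dmp1-Cre;Setd2 fl/fl in the plots), and the dashed line marks a count of 10. Only 6 genes have over 20 counts in every library, and 35 are at 0 in at least 1 library.

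Of the 45 genes that were not tested, 32 had 10 or fewer counts over the 6 libraries, and their median was 4. In H1, the 5 untested genes had 2 to 22 counts in all, with Hist1h1e, a main somatic H1 gene, at the top. The 9 untested H2A genes had 1 to 13 counts and the 11 untested H2B genes 1 to 55. The 9 untested H3 genes had 1 to 22 and the 11 untested H4 genes 2 to 57. Together these genes gave 4.77, 3.32 and 3.97 CPM in control and 3.11, 2.97 and 3.64 CPM in cKO replicates 1, 2 and 3. The ranges of the groups overlapped.

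Per kilobase of annotated exon, Hist1h1c had the highest level (23.6 CPM per kb, mean of 6 libraries), above 91.3% of the genes tested that had a length. Hist3h2ba followed at 11.3 CPM per kb. Hist1h2bc was at 5.66 and Hist2h2be at 5.33 CPM per kb, both above the median of 3.51 CPM per kb for the genes tested. Hist3h2a (2.46), Hist1h4i (2.37), Hist2h3c2 (0.512) and Hist1h2be (0.0881 CPM per kb) were below that median. Summed over replacement variants the level was far higher. The 14 measured variants summed to between 585.6 and 680.0 CPM per kb in a library, against 40.8 to 72.7 for the 53 histone genes. Single variants ranged from 0.262 to 279 CPM per kb, and their median of 13.2 lay below Hist1h1c. The median of the 53 histone genes was 0.084. H3f3b, which encodes H3.3, reached 279 CPM per kb, H1f0, a linker histone of cells that have stopped dividing, 146, and H2afz, which encodes H2A.Z, 81.2 (the first and second were chosen after their values were seen).

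Counts were concentrated in genes with an annotated polyadenylation signal, although most such genes were low. The 16 genes with a polyadenylation signal held 94.6% of the histone counts, and 6 of them were tested. The 37 genes without one held 5.4%, and 2 of them were tested. The medians of the 2 sets were close, at 0.0867 and 0.0712 CPM per kb, so the difference lay in a few genes. None of the 16 genes whose transcripts with the stem-loop all ended within 100 bases of it had more than 22 counts in all. Whether RNA was selected by its tail before sequencing is not given in the sources used here. Rn7sk, an abundant small nuclear RNA without a tail, was chosen after its values were seen and had 57, 42 and 13 counts in control and 54, 34 and 7 in cKO replicates 1, 2 and 3. The part of RNA selection in the low histone counts was not tested.

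**Figure D2:**
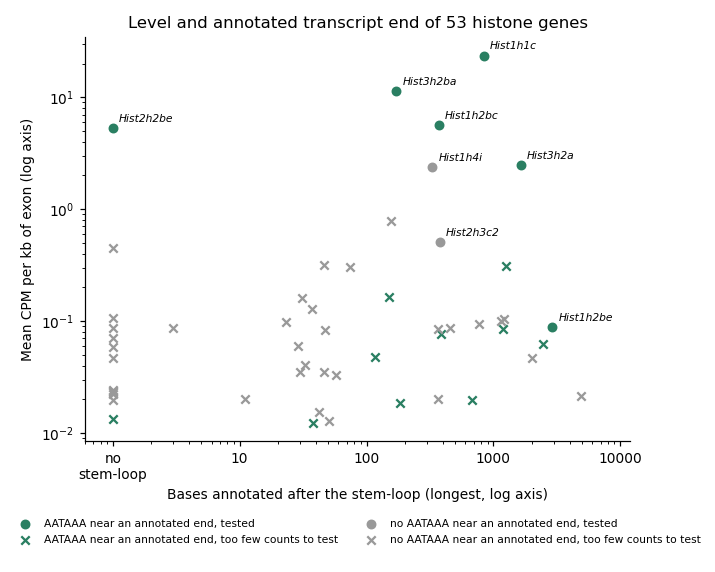
Mean level of each of the 53 genes over 6 libraries (y axis, CPM per kb of annotated exon, log scale) against the bases annotated after the stem-loop (x axis, log scale, with genes lacking a stem-loop at the left). Green symbols have AATAAA near an annotated end and grey ones do not, and crosses are genes with too few counts to test. The 4 highest genes are all green, while other green genes lie below 0.1 CPM per kb.

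Sequence shared between copies can also bear on these counts, since the authors left out reads with a low mapping quality. In 31 genes 10% or more of the 150-base stretches of the transcripts occurred also in another gene. The search did not separate copies elsewhere from genes annotated over the same bases. Of the 31 genes, 2 were tested, Hist3h2a (69.3%, shared with 1 gene) and Hist2h3c2 (59.4%). Hist3h2a overlaps Trim17 on the same strand, so its shared stretches may belong to 1 locus and not to copies. Of the 22 genes under 10%, 6 were tested and 16 were not. The median level was 0.0845 CPM per kb in the 31 genes and 0.0607 CPM per kb in the 22. The part of shared sequence in the counts was not tested. Reads were counted without strand, and 4 genes overlap another gene of the table: Hist3h2a with Trim17, Hist1h2be and Hist1h1e with each other, and Hist2h2ab with Gm15444. Counts of these genes and of Hist2h3c2 are therefore uncertain.

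The comparison of cKO with control libraries asks which genes change when Setd2 is deleted in Dmp1-expressing cells of the papilla. None of the 8 tested histone genes passed the study's thresholds (p under 0.05 before adjustment, and a change of 0.58 or more in either direction on the log2 scale) in edgeR's quasi-likelihood test. Over all 16519 genes tested, 2.71% passed them as lower and 1.1% as higher. At an adjusted p under 0.05 no histone gene and no other gene was called (0.0% in either direction), while 1252 genes, none of them a histone gene, had an unadjusted p under 0.05. DESeq2 gave none of the 8 an unadjusted p under 0.05 either, and it called 115 genes as lower and 24 as higher at an adjusted p under 0.05, none of them a histone gene. The median log2 fold change was -0.04 over the 8 genes and 0.02 over all genes tested, with 4 genes of the 8 on each side of 0. No tested histone gene separated the groups in all libraries, as 7.98% of the genes tested did downwards and 7.26% upwards.

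**Figure D3:**
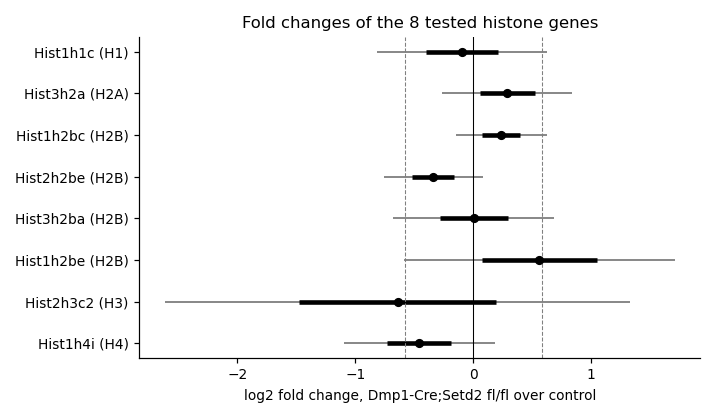
Log2 fold change of the 8 tested histone genes, cKO over control (x axis). Points are edgeR estimates from 3 against 3 libraries, thick bars the standard error and thin bars the 95% confidence interval, with dashed lines at 0.58 in either direction. Every interval includes 0, and that of Hist2h3c2 runs from -2.61 to 1.33.

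Hist1h1c (ENSMUSG00000036181, chromosome 13 from 23738808 to 23740367, a single exon) encodes one of the main somatic linker histones. It was at 34.9, 36.1 and 42.8 CPM in control replicates 1, 2 and 3. It was at 23.1, 29.7 and 53.9 CPM in cKO replicates 1, 2 and 3. Replicates 1 and 2 of the cKO group lay below all controls and replicate 3 above them. The means were 37.9 ± 4.24 and 35.6 ± 16.2 CPM (SD, n = 3 each), and the log2 fold change of -0.09 (95% interval -0.81 to 0.63, adjusted p = 0.950 by edgeR) was well within that spread. Without cKO replicate 3, it was -0.52 (unadjusted p = 0.0131 and adjusted p = 0.144 by edgeR), short of the fold required.

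In H2A, the tested gene was Hist3h2a (ENSMUSG00000078851, chromosome 11 from 58954685 to 58956830). Its levels were 4.35, 5.21 and 4.71 CPM in control and 4.35, 6.20 and 6.90 CPM in cKO replicates 1, 2 and 3. Replicates 2 and 3 of the cKO group lay above the controls and replicate 1 among them. The log2 fold change was 0.29 (95% interval -0.26 to 0.84, adjusted p = 0.754 by edgeR).

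H2B was the family with the most tested genes. Hist2h2be (ENSMUSG00000068854, chromosome 3 from 96221119 to 96223738), whose transcript has a polyadenylation signal and no stem-loop match, had the smallest p of the 8. It was at 15.9, 16.7 and 14.2 CPM in control and 10.2, 12.1 and 14.7 CPM in cKO replicates 1, 2 and 3. Only replicate 3 of the cKO group reached the range of the controls. The log2 fold change was -0.34 (95% interval -0.76 to 0.08), with an unadjusted p of 0.0964 and an adjusted p of 0.688 by edgeR.

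The other 3 tested H2B genes were not called either. Hist1h2bc (ENSMUSG00000018102, chromosome 13 from 23684199 to 23692908), a gene with spliced transcripts most of which lack the stem-loop, was at 16.6, 18.3 and 13.2 CPM in control and 17.2, 19.9 and 19.7 CPM in cKO libraries. Its groups overlapped, with a log2 fold change of 0.24 (95% interval -0.15 to 0.62, adjusted p = 0.726 by edgeR). Hist3h2ba (ENSMUSG00000056895, chromosome 11 from 58948920 to 58949533) was at 7.37, 8.0 and 9.81 CPM in control and 6.12, 7.10 and 12.1 CPM in cKO libraries. As for Hist1h1c, replicates 1 and 2 of the cKO group were below all controls and replicate 3 above them, which left a log2 fold change of 0.00 (95% interval -0.68 to 0.69). Hist1h2be (ENSMUSG00000047246, chromosome 13 from 23583670 to 23621124), whose span partly overlaps that of Hist1h1e and which was named after its values were seen, had 8, 6 and 10 counts in control and 8, 10 and 19 counts in cKO libraries. At this depth its interval reached from -0.59 to 1.71 on the log2 scale.

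In H3, Hist2h3c2 (ENSMUSG00000081058, chromosome 3 from 96238108 to 96239127) was the only tested gene. It had 11, 11 and 13 counts in control replicates 1, 2 and 3, and 2, 2 and 19 counts in cKO replicates 1, 2 and 3. The libraries of the cKO group thus stood on either side of the controls. With all 6 libraries the log2 fold change was -0.64 (95% interval -2.61 to 1.33, adjusted p = 0.852 by edgeR). Without cKO replicate 3 it was -2.58 (unadjusted p = 0.00200, adjusted p = 0.0545 by edgeR). Without replicate 3 of both groups it was -2.45 (adjusted p = 0.0462 by edgeR). In both of these fits the gene passed the filter on low counts only through the controls, so these values give no support to a difference.

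In H4, Hist1h4i (ENSMUSG00000060639, chromosome 13 from 22040636 to 22041362) was at 2.18, 2.26 and 1.53 CPM in control and 1.29, 1.64 and 1.41 CPM in cKO replicates 1, 2 and 3. Control replicate 3 lay among the cKO group. The log2 fold change was -0.46 (95% interval -1.10 to 0.18, adjusted p = 0.701 by edgeR). Hist2h4, the untested H4 gene with the most counts, had 10, 10 and 13 counts in control and 6, 4 and 14 counts in cKO libraries, and was named after its values were seen. As in Hist2h3c2, which lies in the same cluster on chromosome 3, the lowest and the highest counts of Hist2h4 were both in the cKO group.

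Sums over all genes of a family overlapped between groups in 4 of 5 families. The 6 H1 genes summed to 35.5, 36.5 and 43.0 CPM in control and 23.4, 29.96 and 54.6 CPM in cKO replicates 1, 2 and 3. The H2B genes summed to 41.5 ± 2.56 CPM in control and 41.0 ± 6.84 CPM in the cKO group, and the H2A genes to 5.05 ± 0.429 and 6.15 ± 1.44 CPM (SD, n = 3 each). H3 genes summed to 1.25 ± 0.158 and 1.09 ± 0.555 CPM. In each of these 4 families the SD of the cKO group was the larger.

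H4 was the exception. Its 12 genes summed to 3.98, 3.79 and 3.12 CPM in control and to 2.44, 2.60 and 2.61 CPM in cKO replicates 1, 2 and 3, so the groups did not overlap. The log2 ratio of the means was -0.51, and -0.53 without replicate 3 of the cKO group. Of single genes tested, 7.98% were lower in the cKO group without overlap. Hist1h4i supplied most of the H4 counts (195 of 350), and no H4 gene passed a test. A sum over chosen genes was given no p-value.

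**Figure D4:**
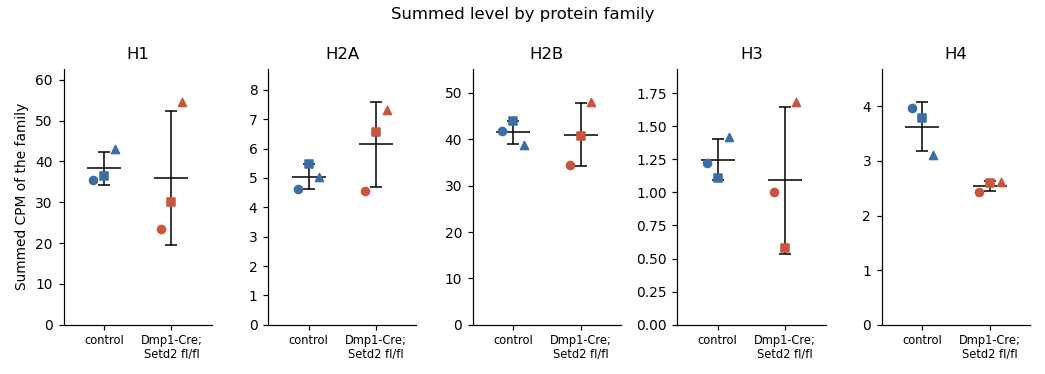
Summed CPM of all genes of each histone family (y axes, each from 0) in the 3 control (blue) and 3 cKO (red) libraries. Circles, squares and triangles are replicates 1, 2 and 3, and black bars show the mean ± SD. Triangles are highest in the cKO group for every family, in H4 by little. In H4 every red symbol lies below the blue ones.

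Replicate 3 of the cKO group differed from replicates 1 and 2 in other genes too. Odontoblast markers (8 genes) summed to between 71650 and 81710 CPM in control, most of it from Col1a1 (54160 to 64930 CPM). In cKO replicates 1, 2 and 3 they summed to 5985, 4012 and 36830 CPM, and all 8 were detected. Of the 8, 6 passed the study's thresholds as lower, against 2.71% of all genes. Ibsp (18.9 to 43.7 CPM in control, 15.5 to 38.3 CPM in the cKO group) and Smpd3 did not, and their groups overlapped. Dental epithelium markers (7 genes) were at 2206 to 7273 CPM in replicates 1 and 2 of both groups, but at 30220 CPM in control replicate 3 and 49940 CPM in cKO replicate 3. Neutrophil markers (7 genes) were at 67.3, 134.3 and 5.16 CPM in cKO replicates 1, 2 and 3 and at 4.37 to 20.5 CPM in control. Endothelium markers (5 genes) were at 225 to 250 CPM in replicates 1 and 2 of both groups, and at 362 CPM in control replicate 3 and 571 CPM in cKO replicate 3. Hist1h1c and Hist3h2ba were highest in replicate 3 of both groups. So were the sums of the odontoblast, dental papilla mesenchyme, epithelium, endothelium and erythroid markers. Those of the neutrophil and macrophage markers were lowest there. The part of the mix of cell types in these histone values was not tested. In such bulk libraries, fewer cells of a type and less RNA per cell cannot be told apart.

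**Figure D5:**
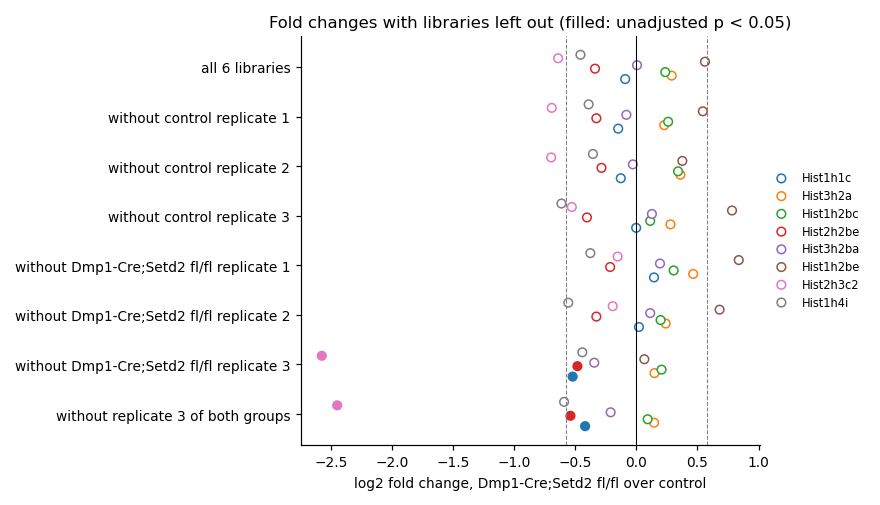
Log2 fold change of the 8 tested histone genes (x axis, cKO over control) with all 6 libraries, with each library left out, and with replicate 3 of both groups left out (y axis). Filled symbols have an unadjusted p under 0.05 and dashed lines mark 0.58 in either direction. Filled symbols occur only where cKO replicate 3 is left out, for Hist1h1c, Hist2h2be and Hist2h3c2, all to the left of 0.

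Leaving out libraries changed few calls of histone genes. Over all genes, those past the study's thresholds rose from 448 to 1161 lower and from 181 to 677 higher without cKO replicate 3. Without cKO replicate 3, 1 of 9 tested histone genes (Hist2h3c2, which passed the count filter there only through the controls) passed the study's thresholds as lower, against 6.88% of all genes, and none did so at an adjusted p under 0.05, against 2.65%. Without replicate 3 of both groups, Hist2h3c2 was again the 1 gene called, by the study's thresholds (7.55% of all genes) and at an adjusted p under 0.05 (4.48%). By limma voom with quality weights, which gives libraries that stand apart less weight, 3 of 8 histone genes (Hist2h2be, Hist1h4i and Hist2h3c2) passed the study's thresholds as lower, against 6.67% of all genes. Hist2h2be (log2 fold change -0.62, adjusted p = 0.0142) and Hist2h3c2 (-2.12, adjusted p = 0.0175) also passed at an adjusted p under 0.05, against 5.98% of all genes. No histone gene was called as higher in any of these fits.

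The replicate number as a block left all 8 histone genes uncalled. In that fit 4.37% of all genes passed the study's thresholds as lower and 2.05% as higher, and 0.799% and 0.176% passed at an adjusted p under 0.05. Under the replicate block, Hist1h1c had a log2 fold change of -0.17 (adjusted p = 0.626 by edgeR), Hist2h2be of -0.35 (adjusted p = 0.309) and Hist2h3c2 of -0.86 (adjusted p = 0.495).

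Genes that work with the histone mRNAs and proteins were taken from lists. None of 23 tested genes for 3' end processing and turnover of histone mRNA passed the study's thresholds, with a median log2 fold change of 0.09. The smallest p was that of Eri1, an exonuclease that trims the stem-loop end and acts in histone mRNA decay, at 17.1 ± 0.723 CPM in control and 21.0 ± 1.64 CPM in the cKO group (SD, n = 3, log2 fold change 0.29, adjusted p = 0.661 by edgeR). It was followed by Yy1, a zinc finger transcription factor (log2 fold change 0.21, adjusted p = 0.678 by edgeR). Slbp, which encodes the stem-loop binding protein and was named after its values were seen, was at 27.7, 26.3 and 23.5 CPM in control and 34.2, 37.0 and 25.0 CPM in the cKO group (log2 fold change 0.31, adjusted p = 0.696 by edgeR).

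None of 25 histone chaperone genes passed the thresholds either (median 0.10). Nap1l1, a chaperone of H2A and H2B, was at 119, 120 and 106 CPM in control and at 159, 200 and 119 CPM in the cKO group (log2 fold change 0.47, adjusted p = 0.648 by edgeR). Asf1a, a chaperone of H3 and H4, was at 12.6, 11.2 and 8.50 CPM in control and 14.2, 20.2 and 12.3 CPM in the cKO group (log2 fold change 0.53, adjusted p = 0.667 by edgeR). Without cKO replicate 3 both passed the study's thresholds as higher, which 4.01% of all genes did, at log2 fold changes of 0.64 and 0.67. There Nap1l1 also passed at an adjusted p under 0.05 (0.0495 by edgeR, with 0.676% of all genes called as higher), and Asf1a did not (0.165). Without replicate 3 of both groups only Nap1l1 passed the study's thresholds (with 4.49% of all genes as higher), with an adjusted p of 0.0323 by edgeR (2.33%).

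Of 13 tested replacement variants none passed, with a median log2 fold change of 0.07 and positive values in 11. H2afv, another H2A.Z gene, was at 67.5 ± 6.08 CPM in control and 80.7 ± 5.83 CPM in the cKO group (log2 fold change 0.26, adjusted p = 0.665 by edgeR). H2afz had a log2 fold change of 0.19 (adjusted p = 0.759 by edgeR).

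Genes of the cell cycle phases in which histone mRNA is made and lost differed by no more. None of 30 tested S phase genes passed the thresholds (median -0.03), and their sum was 719 to 827 CPM in control and 713 to 802 CPM in the cKO group. The smallest p values belonged to Gins4, of the replicative helicase (log2 fold change 0.27), and to Dnmt1, which copies DNA methylation after replication (-0.23). None of 25 G2/M genes passed (median -0.06), although 22 had negative values, and the smallest p values were those of Cdk1 (-0.12) and Ccna2 (-0.21). Their sum was 393, 253 and 369 CPM in cKO replicates 1, 2 and 3 and 327 to 408 CPM in control, so replicate 2 alone stood below the controls. The histone sums were 65.8, 80.3 and 114 CPM in these same libraries and 87.1 to 91.5 CPM in control. Hist1h1c, Hist1h2bc and Hist2h2be, each with a polyadenylation signal, held 77.2% of the histone counts. The part of the cell cycle in the histone sums was not tested.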

How the data were processed

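One table of the whole series was used. Its counts are whole-number counts per gene and library, which the authors made by alignment with HISAT2 and counting with HTSeq, without strand and without reads of mapping quality under 10. Bowtie2, DESeq2 and GRCm39 are named, without versions, in the submitters' processing notes. Columns with results of the authors' DESeq2 run were deposited in the same table and not used here: the mean normalized signal, the ratio between groups (fold change), the log2 of that ratio, and p-values. No per-sample column was left unused (0), and 0 lines name no gene.

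Genes were filtered with filterByExpr (minimum count 10, 16519 of 31613 kept), scaled by TMM and tested with edgeR 4.0.16 (robust quasi-likelihood) in R 4.3.3. Benjamini-Hochberg adjustment covered all genes tested. Standard errors are the log2 fold change divided by the root of F. Fits were tested on simulated data. Exon lengths and transcripts came from GENCODE vM39, matched by gene identifier. CPM per kb and transcript ends may therefore not match the gene models that were counted. Depth was even, so the spread between libraries (coefficient of variation 25.3%) exceeds counting error except in genes of few counts. Libraries of a group are the replicates, each a pool. No 2 libraries of a group differed by as little as sampling noise.

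The members, lists and tests were chosen with earlier results of these data known. The genes named are, in each family, the 3 tested genes of highest CPM per kb and the one of smallest p, Setd2, and up to 2 genes of smallest p per list. Lists of replacement variants, histone mRNA processing and turnover, chaperones, S phase, G2/M and cell type markers were used. Besides the odontoblast, dental epithelium and neutrophil lists, there were marker lists of dental papilla mesenchyme, erythroid cells, macrophages, endothelium, mural cells, glia and osteoclasts. Of the 36 tested genes of these latter lists, 1 (Lhx8, chosen after its values were seen) passed the thresholds of the study, as lower. Deviations from the group means correlated between same-numbered libraries at 0.453, 0.465 and 0.663 for replicates 1, 2 and 3. The numbers were used as pairs in the replicate block alone, and the main fit left this pairing out. For control replicate 2 and cKO (Dmp1-Cre;Setd2 fl/fl) replicate 1 the value was 0.455, so replicates 1 and 2 were not set apart. Alternatives were DESeq2 1.42.0, limma 3.58.1 (voom with quality weights), RLE factors, library sizes without the 100 highest genes, other filters, the replicate block, left-out libraries and other member rules.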

Additional observations from a re-analysis of the deposited data

How the results depend on the processing

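With the fit of all 6 libraries no histone gene was called, and this held with DESeq2, RLE factors, no filter, library sizes without the 100 highest genes, a strict filter of 10 counts in every library, the replicate block, and the 3 other member rules (overlapping genes left out, any biotype, testis-specific and replacement-type genes left out). Genes lower at the study's thresholds numbered 3 by voom, 1 without replicate 3 of both groups, and 0 to 1 with 1 library left out. At an adjusted p under 0.05 they numbered 2 by voom, 1 without replicate 3 of both groups, and 0 with any 1 library left out. Wherever a histone gene was called, Hist2h3c2, which relied on the controls to pass the count filter, was among those called. The median log2 fold change of -0.04 moved to -0.40 by voom and -0.44 without replicate 3 of both groups, and ran from -0.34 to 0.02 with 1 library left out. The log2 ratio of family sums ran, with 1 library left out, from -0.52 to 0.14 for H1, -0.65 to 0.11 for H3 and -0.61 to -0.44 for H4. Chaperone genes past the study's thresholds numbered 1 without replicate 3 of both groups (Nap1l1) and 0 to 2 with 1 library left out. The cause of these moves was not tested.

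Hist3h2ba, at 0.00, turned to -0.0059 without the 100 highest genes, -0.28 by voom, -0.21 without replicate 3 of both groups, -0.04 with the replicate block and -0.0015 with the strict filter, and ran from -0.34 to 0.19 with 1 library left out. Hist3h2a turned to -0.075 by voom. With 1 library left out Hist1h1c ran from -0.52 to 0.14 and Ccna2 from -0.35 to 0.022. The strict filter left no value for Hist1h2be and Hist2h3c2. The replicate block, which pairs libraries by number, changed no call of a histone gene, but raised the genes called at an adjusted p under 0.05 from 0 to 132 lower and 29 higher. Depth limits Hist1h2be, Hist2h3c2 and the 45 untested genes, where a few counts set the value.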
